A study of Hordeum vulgare with 6 samples.

Results

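The deposited expression table of young barley panicles was searched for homeobox genes, which were taken as all genes whose description contains homeobox, homeodomain, knotted, BEL1 or WUSCHEL, in any case of letters. This chose 148 of the 40411 genes. By the wording of the description 10 of them were KNOX (knotted) genes, 16 BEL1-like, 14 WUSCHEL-related (WOX), 46 leucine zipper (HD-ZIP) and 62 other genes. The rule itself reads the description alone. RNA was sequenced from young panicles, 0.5 to 1 cm long, of *msnsd*, a dwarf barley mutant that forms extra stem nodes and spikes, and of E934, the variety labelled wild type, from which the mutant was obtained by treatment with EMS and 60Co. The panicles were at the stages from glume to lemma primordium, and no further treatment separated the genotypes. Each genotype had 3 biological replicates, 6 libraries in all, and all *msnsd* libraries come from 1 mutant line, so other changes induced in that line cannot be told apart from the mutation named by it. Values are in TPM, a share of transcripts that corrects for transcript length and scales each library to the same total, so levels can be compared between genes.

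Homeobox proteins are transcription factors that bind DNA through a homeodomain. In grasses and in Arabidopsis, class I KNOX proteins keep cells of the shoot and inflorescence meristems undetermined. BEL1-like (BELL) proteins pair with KNOX proteins and bring them to the nucleus. The KNOX genes of these data were not divided by class. In Arabidopsis, WUSCHEL maintains the stem cells of the shoot meristem and other WOX proteins act in the root, the cambium, the embryo and the leaf margin. HD-ZIP proteins form families with distinct roles, among which HD-ZIP III sets the upper side of leaves and the vascular pattern and HD-ZIP IV acts in the epidermis of Arabidopsis. In barley, the Hooded trait, in which an extra floret forms on the lemma, arises from a KNOX gene that is active in the wrong place.

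The description is a loose criterion, and the protein domains listed in the same table were used to see what it had gathered. A homeobox domain was listed for 83 of the 148 genes, and 65 had none. Only a fixed list of homeobox entries was counted. None of the 6 genes with the ZF-HD domain, whose proteins carry a homeodomain, had an entry on that list, so they count among the 65. Of the 42 low-confidence gene models among the members, 40 had no homeobox domain. Conversely, only 1 further gene of the table had the domain without such a description, HORVU.MOREX.r3.7HG0676860. Both KNOX domains and the name knotted were found in 7 genes, and 2 genes described only as homeobox-1 also had KNOX domains, which makes 9 KNOX-domain genes. The POX domain of BELL proteins was listed for 11 of the 16 BEL1-like genes. Among the HD-ZIP genes 5 had both the START and the MEKHLA domain of HD-ZIP III, 15 had START without MEKHLA, as HD-ZIP IV proteins do, and the homeobox-associated leucine zipper of HD-ZIP I and II was listed for 19 genes, 7 of which are described only as homeobox proteins. The domain classes were drawn up after the table had been seen. The members lie on all chromosomes, from 14 on 6H to 25 on 3H.

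Most members were present at moderate levels in both genotypes. The mean over the 6 libraries was at least 1 TPM in 90 members, at least 10 TPM in 60 and at least 100 TPM in 6. The median member had 4.70 TPM, and 40.5% of the members reached 10 TPM, against 32.4% of all genes. In 117 members the value was above 0 in all 6 libraries. The median level was highest in the KNOX group at 18.5 TPM, followed by the leucine zipper group at 6.61 TPM and the BEL1-like group at 6.27 TPM. The WUSCHEL-related group was the lowest at 0.938 TPM. The filter on low values, a mean of 0.1 TPM, was passed by 128 members, and the 20 that did not pass it had at most 0.39 TPM in any library.

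**Figure D1:**
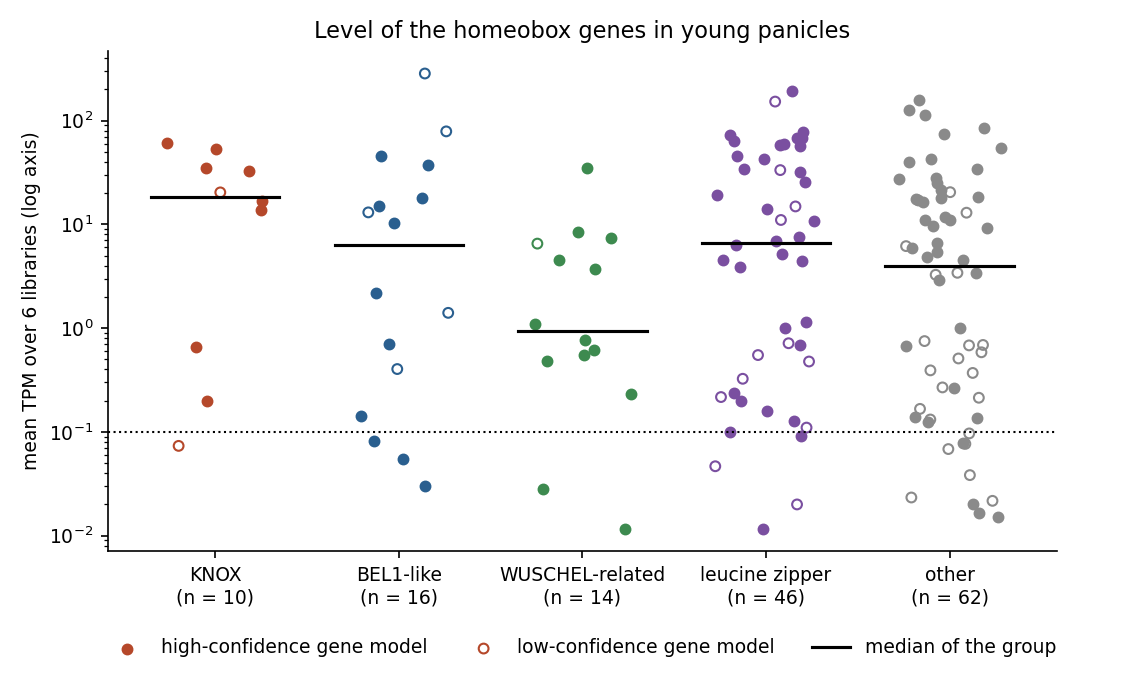
Mean TPM over the 6 libraries (vertical log axis) of the 148 homeobox genes by group (horizontal axis). Filled points are high-confidence and open points low-confidence models, the bar is the median of the group, and the dotted line is the filter of 0.1 TPM. The KNOX median of 18.5 TPM stands above the WUSCHEL-related median of 0.938 TPM.

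The summed level of the homeobox genes was close in both genotypes. All members together had 3056 ± 86.2 TPM in *msnsd* and 3074 ± 191 TPM in E934 (SD, n = 3), which is 0.306% of the TPM in *msnsd* and 0.307% in E934. The KNOX group summed to 235 ± 10.9 TPM in *msnsd* and 232 ± 6.98 TPM in E934 (SD, n = 3). The WUSCHEL-related group summed to 68.3 ± 5.06 TPM in *msnsd* and 69.8 ± 8.74 TPM in E934 (SD, n = 3). For the leucine zipper group the sums were 1191 ± 56.8 TPM in *msnsd* and 1206 ± 86.4 TPM in E934 (SD, n = 3). For all members together and for these groups by description, each difference was smaller than the spread between replicates. The difference of the KNOX-domain genes was larger than the SD of either genotype, though their sums overlapped between genotypes. Since the panicles were sampled whole, fewer cells of a type and less RNA per cell cannot be told apart in any of these values.

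The genotypes were compared gene by gene with limma on log2(TPM + 0.1) over all 32968 genes that passed the filter, and log2 differences are *msnsd* minus E934 on that scale, the log2 of the fold change, with SE for the standard error. A gene was called where its fold change reached 1.5 in either direction on the log2 scale and its Benjamini-Hochberg adjusted p did not exceed 0.05. No homeobox gene was called by limma, 0 of 128, where 0.0485% of all genes tested were called, 0.0212% higher and 0.0273% lower in *msnsd*. The smallest adjusted p of a member from limma with Benjamini-Hochberg adjustment was 0.0738. At p under 0.05 before adjustment there were 21 members, 12 higher in *msnsd* and 9 lower, or 9.38% and 7.03% of the members tested, where 5.58% of all genes were higher and 5.09% lower. These counts moved with single libraries, to 19 higher and 11 lower without E934 replicate 1, 9 higher and 5 lower without *msnsd* replicate 2 and 7 higher and 5 lower without *msnsd* replicate 3. The count over all 32968 genes in both directions moved as well. It was 3517 with all libraries, 5159 without E934 replicate 1, 2961 without *msnsd* replicate 2 and 2294 without *msnsd* replicate 3. With all libraries, 2 rather than 9 were lower among the members with a homeobox domain listed, a choice that leaves out the 6 ZF-HD genes. Of those, 2 were lower. Every *msnsd* library lay above every E934 library in 13 members (all genes 8.73%) and below in 10 members (all genes 7.86%). The median log2 difference of the members was 0.04, against -0.02 for all genes. For 71 of the 128 members the 95% interval of the log2 difference lay within 1 in both directions, and these all had a mean of at least 1 TPM. For the others the replicates did not exclude a difference of that size. With 3 libraries against 3 the exact permutation test allows no p below 0.1, which is the two-sided p of every member without overlap named here.

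**Figure D2:**
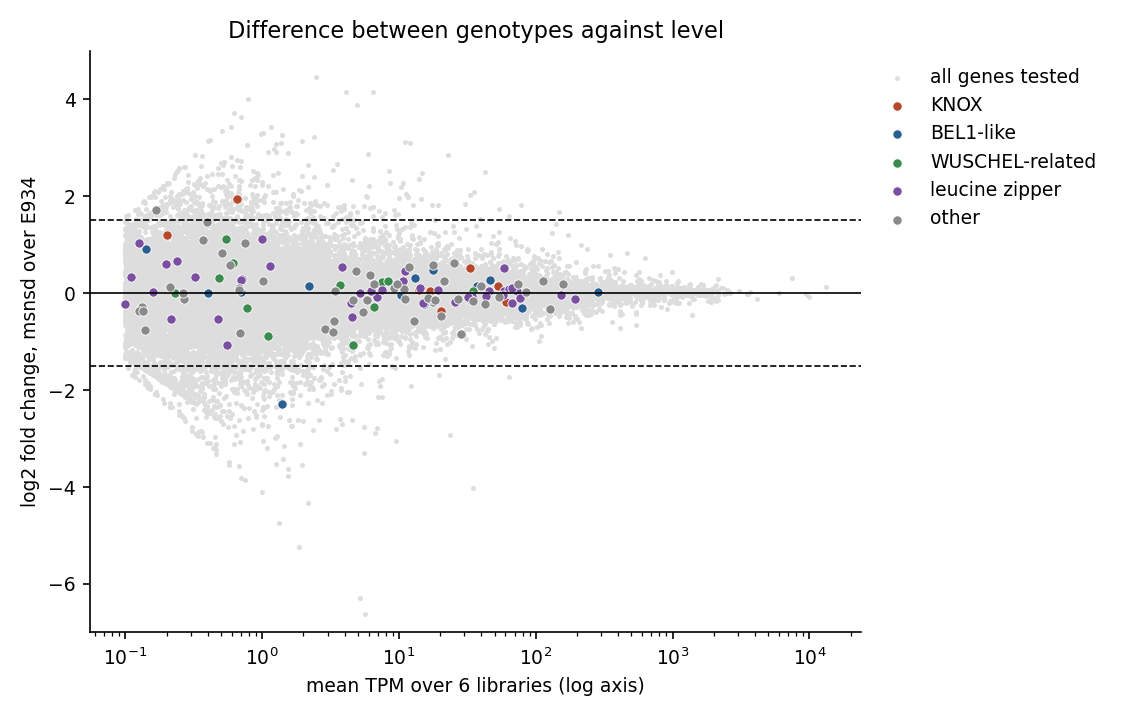
Log2 fold change, *msnsd* over E934, from log2(TPM + 0.1) (vertical axis) against mean TPM over the 6 libraries (log axis). Grey points are the 32968 genes tested, coloured points the 128 homeobox genes by group, and dashed lines mark a log2 difference of 1.5 in either direction. The homeobox genes run from -2.29 to 1.95, and those beyond 1 in either direction have means below 5 TPM.

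The KNOX genes held the most positive fold change without overlap, at a low level. HORVU.MOREX.r3.4HG0333990, described as knotted-1-like 1 (chromosome 4H, 7173641 to 7185231), had 0.92, 1.29 and 1.06 TPM in *msnsd* and 0.15, 0.14 and 0.38 TPM in E934. Every *msnsd* library stood above every E934 library. Its log2 difference of 1.95 (SE 0.42) was beyond the fold threshold, but its adjusted p was 0.173 (limma, Benjamini-Hochberg). The size depended on the pseudocount and was 0.77 at a pseudocount of 1 and 2.37 at 0.01. HORVU.MOREX.r3.4HG0412370, described as knotted-1, putative (chromosome 4H, 594364765 to 594369936), was lower still, with 0.36, 0.28 and 0.31 TPM in *msnsd* and 0.11, 0.10 and 0.04 TPM in E934. The libraries did not overlap, and the log2 difference was 1.20 (SE 0.45, limma adjusted p = 0.411), or 0.28 at a pseudocount of 1.

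The abundant KNOX genes differed less between the genotypes. HORVU.MOREX.r3.5HG0513530, a second gene described as knotted-1-like 1 (chromosome 5H, 535228694 to 535235584), had 33.88, 43.04 and 38.08 TPM in *msnsd* and 32.22, 20.26 and 29.24 TPM in E934. The lowest *msnsd* library was just above the highest E934 library, and the log2 difference was 0.51 (SE 0.18, limma adjusted p = 0.395). HORVU.MOREX.r3.2HG0154270, described only as homeobox-1 but carrying KNOX domains (chromosome 2H, 363973953 to 363977826), varied little within a genotype. It had 20.24, 21.40 and 22.18 TPM in *msnsd* and 14.31, 14.56 and 13.94 TPM in E934, so that the gap between the genotypes was wider than the range within either. Its log2 difference was 0.57 (SE 0.09), with a limma adjusted p of 0.0906. The other homeobox-1 gene with KNOX domains, HORVU.MOREX.r3.4HG0339120 (chromosome 4H, 24234352 to 24242112), was the most abundant of the class, with 106.08, 135.10 and 128.99 TPM in *msnsd* and 105.12, 93.01 and 110.00 TPM in E934. One E934 library exceeded the lowest *msnsd* library, and the log2 difference was 0.26 (SE 0.11, limma adjusted p = 0.475). Of these, HORVU.MOREX.r3.5HG0513530 and HORVU.MOREX.r3.2HG0154270 lie outside the rule for named genes and were chosen after their values were seen.

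The most abundant genes named knotted showed no common direction. HORVU.MOREX.r3.7HG0744200 (chromosome 7H, 613060146 to 613064327) had 48.99, 65.39 and 55.37 TPM in *msnsd* and 75.77, 57.74 and 60.67 TPM in E934. HORVU.MOREX.r3.1HG0016370 (chromosome 1H, 47506515 to 47512144) had 57.98, 58.92 and 51.48 TPM in *msnsd* and 50.97, 48.77 and 51.25 TPM in E934. HORVU.MOREX.r3.6HG0568300 (chromosome 6H, 111189013 to 111194443) had 33.73, 34.11 and 33.12 TPM in *msnsd* and 31.55, 40.31 and 37.24 TPM in E934. Their log2 differences were -0.19, 0.15 and -0.10, with limma adjusted p of 0.659, 0.523 and 0.740, and only the 1H gene had no overlap. Over the 9 KNOX-domain genes, all of which were tested, 4 were higher in *msnsd* at p under 0.05 before adjustment (all genes 5.58%) and 0 were lower (all genes 5.09%). In 5 of them every *msnsd* library lay above every E934 library (all genes 8.73%). With a filter at a mean of 1 TPM 2 were higher, and without E934 replicate 1 there was 1 lower, HORVU.MOREX.r3.6HG0568300. The median log2 difference of the 9 was 0.26, against -0.02 for all genes. The 9 genes together had 324.98, 374.73 and 345.49 TPM in *msnsd* and 333.08, 304.56 and 319.2 TPM in E934, so that their sums overlapped in 1 library. Of the 3 genes with knotted in the description but no KNOX domains, 1 was below the filter.

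**Figure D3:**
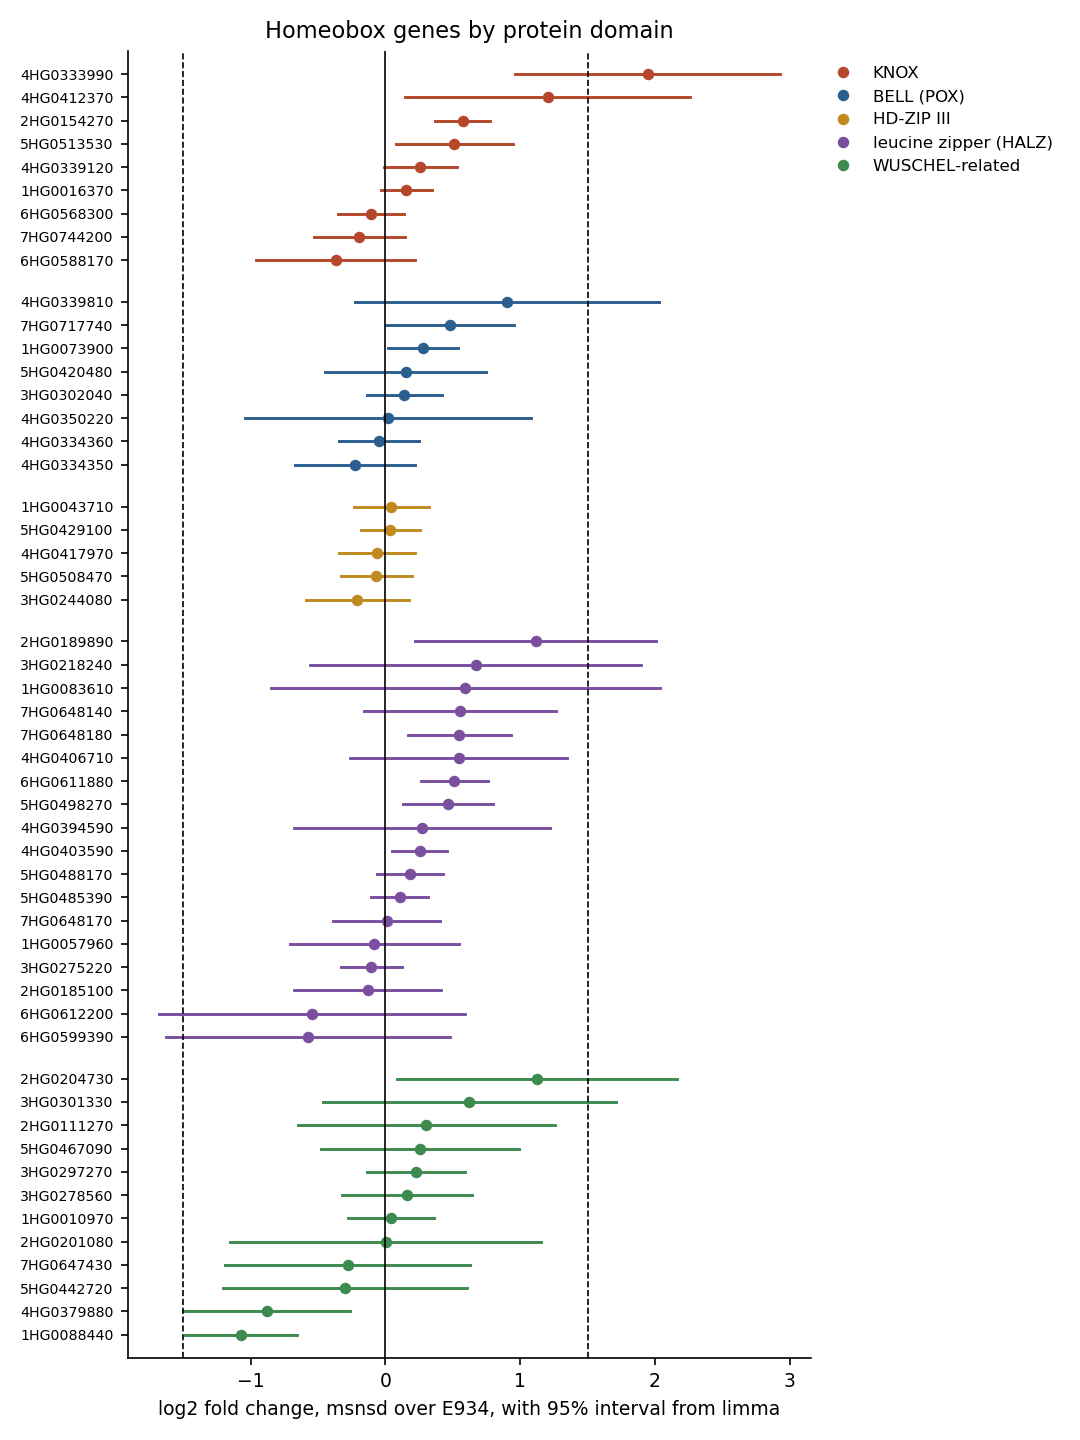
Log2 fold change, *msnsd* over E934, from log2(TPM + 0.1) with its 95% limma interval (horizontal axis) for the tested genes of 5 classes, the KNOX-domain genes, BELL genes with a POX domain, HD-ZIP III, genes with the homeobox-associated leucine zipper, and WUSCHEL-related genes. Each row is 1 gene, and the intervals are not adjusted for the number of genes. The 5 HD-ZIP III genes lie between -0.21 and 0.04 with short intervals, while the KNOX-domain genes run from -0.37 to 1.95.

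The BEL1-like genes, whose products are the partners of KNOX proteins, had 13 of 16 members past the filter. At p under 0.05 before adjustment, 2 were higher in *msnsd* (all genes 5.58%) and 1 was lower (all genes 5.09%), and their median log2 difference was 0.03. The highest value of any homeobox gene was that of HORVU.MOREX.r3.1HG0048720, a low-confidence model of 312 bp described as BEL1-like homeodomain 10 (chromosome 1H, 322462869 to 322463180). It had 310.57, 283.65 and 257.75 TPM in *msnsd* and 378.92, 232.26 and 240.84 TPM in E934. The 3 E934 values enclosed those of *msnsd*, and the log2 difference was 0.03 (SE 0.19, limma adjusted p = 0.962), or 0.26 without E934 replicate 1. HORVU.MOREX.r3.7HG0705410, a low-confidence model of 411 bp described as BEL1-like homeodomain 2 (chromosome 7H, 431848407 to 431848817), had 86.10, 65.18 and 61.61 TPM in *msnsd* and 85.33, 83.32 and 90.36 TPM in E934. Its log2 difference was -0.30 (SE 0.13, limma adjusted p = 0.475), with 1 *msnsd* library inside the range of E934. Neither model has a POX or homeobox domain listed, and TPM divides by the length of such short models.

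Of the 11 genes with a POX domain 8 were tested. At p under 0.05 before adjustment, 2 of them were higher in *msnsd* (all genes 5.58%) and 0 lower (all genes 5.09%). Leaving out 1 library gave 0 to 2 higher and, without E934 replicate 2, 1 lower. HORVU.MOREX.r3.1HG0073900 (chromosome 1H, 464310250 to 464314963), the third most abundant BEL1-like gene, had 55.23, 45.84 and 50.02 TPM in *msnsd* and 46.45, 40.29 and 37.78 TPM in E934. The genotypes overlapped by less than 1 TPM, and the log2 difference was 0.28 (SE 0.11, limma adjusted p = 0.435). HORVU.MOREX.r3.7HG0717740, chosen after its values were seen, had 19.88, 22.51 and 19.41 TPM in *msnsd* and 20.17, 11.55 and 13.64 TPM in E934, with a log2 difference of 0.48 (SE 0.20, limma adjusted p = 0.466). Here E934 replicate 1 lay within the *msnsd* range and the other E934 libraries below it. The only tested BEL1-like gene without overlap was HORVU.MOREX.r3.4HG0339810 (chromosome 4H, 27555371 to 27565963), at the edge of detection with 0.17, 0.23 and 0.24 TPM in *msnsd* and 0.03, 0.11 and 0.07 TPM in E934. Its log2 difference of 0.90 (SE 0.48) had a limma adjusted p of 0.530 and was 0.18 at a pseudocount of 1. Below the filter, HORVU.MOREX.r3.1HG0052320 did not overlap either and went the other way. It had 0.01, 0.02 and 0.05 TPM in *msnsd* and 0.09, 0.07 and 0.09 TPM in E934, and was chosen after its values were seen. The most negative fold change of any member was that of HORVU.MOREX.r3.7HG0699490, a low-confidence model of 231 bp described as BEL1-like homeodomain 5 (chromosome 7H, 376873142 to 376873372), with 1.14, 0.57 and 0.00 TPM in *msnsd* and 1.03, 2.82 and 2.86 TPM in E934. The genotypes overlapped, and its log2 difference of -2.29 (SE 0.93, limma adjusted p = 0.452) was -1.23 without *msnsd* replicate 3, which is listed at 0, and -1.05 at a pseudocount of 1.

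The WUSCHEL-related genes were mostly low, and those that differed most went in opposite directions. HORVU.MOREX.r3.1HG0088440 (chromosome 1H, 500836467 to 500840469) had 2.51, 3.23 and 3.01 TPM in *msnsd* and 5.76, 7.13 and 5.81 TPM in E934. All *msnsd* libraries were far below all E934 libraries, with means of 2.92 ± 0.369 TPM in *msnsd* and 6.23 ± 0.777 TPM in E934 (SD, n = 3). The log2 difference was -1.07 (SE 0.18) with a limma adjusted p of 0.102, and over the alternative settings the fold change stayed between -1.15 and -0.88 and the adjusted p between 0.0830 and 0.392. HORVU.MOREX.r3.4HG0379880 (chromosome 4H, 406415902 to 406418414), chosen after its values were seen, had 0.76, 0.69 and 0.78 TPM in *msnsd* and 1.65, 1.33 and 1.39 TPM in E934. It too had no overlap, with a log2 difference of -0.88 (SE 0.26, limma adjusted p = 0.314). In contrast HORVU.MOREX.r3.2HG0204730, described as WUSCHEL-like (chromosome 2H, 635174484 to 635175616), had 0.52, 0.79 and 1.03 TPM in *msnsd* and 0.24, 0.49 and 0.20 TPM in E934. Its lowest *msnsd* library was close to its highest E934 library, and the log2 difference of 1.12 (SE 0.44, limma adjusted p = 0.435) was 0.44 at a pseudocount of 1.

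The most abundant WUSCHEL-related genes differed by less than the spread of the replicates or close to it. HORVU.MOREX.r3.1HG0010970 (chromosome 1H, 26128483 to 26129495) had 36.21, 36.08 and 32.60 TPM in *msnsd* and 41.56, 30.74 and 30.41 TPM in E934. HORVU.MOREX.r3.5HG0467090 had 10.49, 9.09 and 7.19 TPM in *msnsd* and 11.03, 7.77 and 4.67 TPM in E934. HORVU.MOREX.r3.3HG0297270 had 9.11, 6.82 and 8.29 TPM in *msnsd* and 6.10, 7.14 and 7.33 TPM in E934. All 3 overlapped between genotypes, with log2 differences of 0.04, 0.25 and 0.23. Of the 12 WUSCHEL-related genes tested, 1 was higher (all genes 5.58%) and 2 were lower (all genes 5.09%) in *msnsd* at p under 0.05 before adjustment. Their median log2 difference was 0.10. HORVU.MOREX.r3.3HG0230550, below the filter, was listed at 0 in the *msnsd* libraries and at 0.03, 0.11 and 0.03 TPM in E934, and was chosen after its values were seen.

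**Figure D4:**
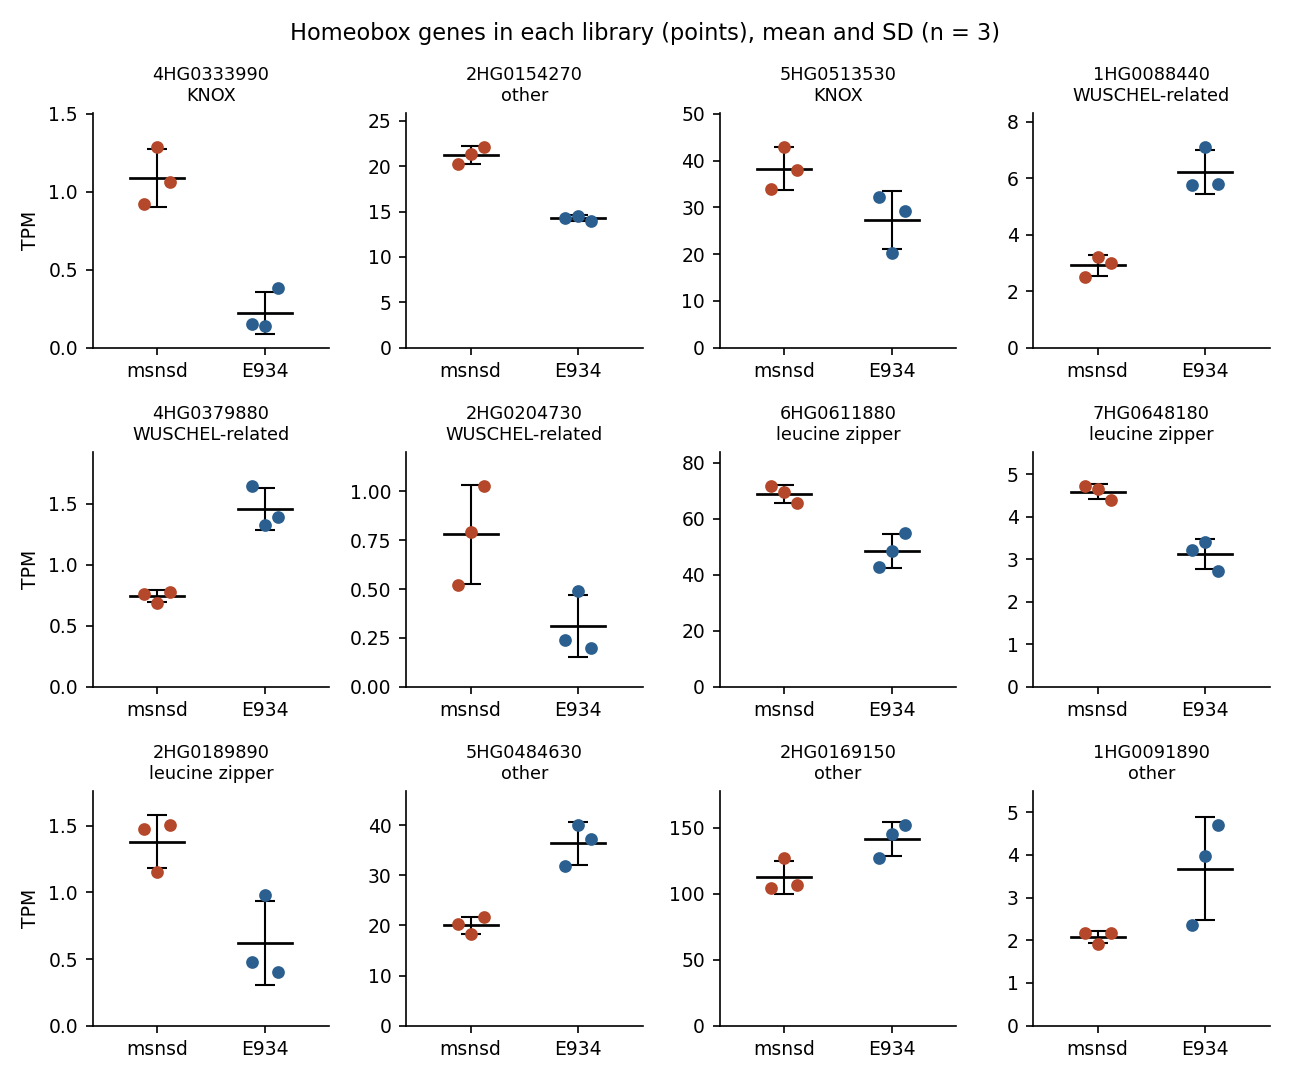
TPM in each library (vertical axes, each from 0) of 12 homeobox genes, with *msnsd* left of E934. Points are the 3 libraries of a genotype, and the horizontal line and bar are their mean and SD. The 12 genes were picked after their values were seen, among members whose libraries do not overlap between the genotypes. Of all genes tested, 8.73% had every *msnsd* library above every E934 library and 7.86% below. The narrowest gap for its level is in HORVU.MOREX.r3.2HG0169150, from 126.71 TPM in *msnsd* to 126.77 TPM in E934.

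Genes with the homeobox-associated leucine zipper, the HD-ZIP I and II type, were counted apart from the START-domain HD-ZIP genes. Proteins of this type are known in Arabidopsis for responses to drought, light and shade and for bud and leaf growth. Of 18 such genes tested, 5 were higher in *msnsd* at p under 0.05 before adjustment (all genes 5.58%) and 0 were lower (all genes 5.09%). In 5 every *msnsd* library lay above every E934 library (all genes 8.73%), and the median log2 difference was 0.26. Without E934 replicate 1 there was 1 lower, HORVU.MOREX.r3.6HG0599390. Together the genes of this class had 438.88, 461.78 and 450.28 TPM in *msnsd* and 407.17, 379.81 and 417.76 TPM in E934, with no overlap. Their sums averaged 450 ± 11.5 TPM in *msnsd* and 402 ± 19.6 TPM in E934 (SD, n = 3). Abundant members weigh most in such a sum. Means in *msnsd* and E934 were 167 and 148 TPM for HORVU.MOREX.r3.5HG0488170 and 69.0 and 48.6 TPM for HORVU.MOREX.r3.6HG0611880. Of the 18 genes tested, 13 had a positive and 5 a negative log2 difference. Whether this class differs from the other homeobox genes was not tested.

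HORVU.MOREX.r3.6HG0611880 (chromosome 6H, 488957625 to 488959887), chosen after its values were seen, is one of them. It had 71.91, 69.45 and 65.64 TPM in *msnsd* and 42.61, 48.37 and 54.83 TPM in E934. Each *msnsd* library was above each E934 library by more than 10 TPM, and the log2 difference was 0.51 (SE 0.10, limma adjusted p = 0.163). HORVU.MOREX.r3.5HG0488170 (chromosome 5H, 468899208 to 468900838), the most abundant of the class, had 161.70, 183.43 and 156.64 TPM in *msnsd* and 160.97, 130.18 and 151.63 TPM in E934, which overlapped (log2 difference 0.18 with an SE of 0.10, limma adjusted p = 0.559). HORVU.MOREX.r3.3HG0275220 had 73.19, 67.99 and 81.32 TPM in *msnsd* and 79.43, 73.78 and 85.72 TPM in E934, and its log2 difference of -0.10 was about its SE of 0.10. The largest fold change without overlap in the leucine zipper group was in HORVU.MOREX.r3.2HG0189890 (chromosome 2H, 597146011 to 597147038), with 1.48, 1.15 and 1.51 TPM in *msnsd* and 0.48, 0.98 and 0.40 TPM in E934. Its lowest *msnsd* library was only slightly above E934 replicate 2. The log2 difference was 1.11 (SE 0.38, limma adjusted p = 0.376) and 0.57 at a pseudocount of 1. Among the other genes of the class at p under 0.05 before adjustment, HORVU.MOREX.r3.5HG0498270 and HORVU.MOREX.r3.4HG0403590 had log2 differences of 0.47 and 0.25 and did not overlap, and both were chosen after their values were seen.

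Neighbouring HD-ZIP genes on chromosome 7H were not all alike. HORVU.MOREX.r3.7HG0648180 (25810717 to 25812354) had 4.74, 4.65 and 4.39 TPM in *msnsd* and 3.23, 3.40 and 2.73 TPM in E934, with no overlap and a log2 difference of 0.55 (SE 0.16, limma adjusted p = 0.314). The next gene, HORVU.MOREX.r3.7HG0648170, lies 15046 bp away and had 4.44, 5.75 and 5.33 TPM in *msnsd* and 5.45, 5.49 and 4.46 TPM in E934. Its libraries overlapped and its log2 difference was 0.01 (SE 0.17). Another neighbour, HORVU.MOREX.r3.7HG0648140, had 1.35, 1.20 and 1.53 TPM in *msnsd* and 0.84, 0.69 and 1.21 TPM in E934, which overlapped. Its log2 difference of 0.55 (SE 0.30, limma adjusted p = 0.541) was close to that of HORVU.MOREX.r3.7HG0648180. HORVU.MOREX.r3.7HG0648280 was above 0 only in *msnsd* replicate 2, at 0.76 TPM. All were chosen after their values were seen, and differences between the neighbours were not tested.

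The HD-ZIP III genes, which in Arabidopsis set organ polarity and vascular pattern, overlapped between genotypes in all 5 cases. Their levels were from 4.48 to 58.7 TPM as means over the 6 libraries, their log2 differences lay between -0.21 and 0.04, and all 5 intervals excluded a log2 change of 1 in either direction. With all libraries 0 had p under 0.05 before adjustment, and without E934 replicate 1 there was 1, lower, HORVU.MOREX.r3.5HG0508470. None of the 13 tested genes with START but no MEKHLA had p under 0.05 before adjustment in either direction. Without E934 replicate 3 there were 2 lower. HD-ZIP IV proteins have these domains, but of all 15 genes of the class only 10 had a homeobox domain listed. The others are low-confidence models, and a missing MEKHLA in such a model does not make it HD-ZIP IV. HORVU.MOREX.r3.2HG0166000, described as HOX9, putative, a model of 279 bp with no homeobox domain listed (chromosome 2H, 460007988 to 460008266), was the most abundant of the leucine zipper group. It had 193.24, 180.92 and 183.77 TPM in *msnsd* and 239.76, 169.24 and 201.44 TPM in E934. The low-confidence model HORVU.MOREX.r3.6HG0597310, described as HD-ZIP IV and 336 bp long, had 151.96, 134.95 and 163.11 TPM in *msnsd* and 162.13, 154.10 and 147.79 TPM in E934. In both, the *msnsd* and E934 libraries overlapped, and the log2 differences were -0.12 and -0.05. The only leucine zipper gene lower in *msnsd* at p under 0.05 before adjustment was HORVU.MOREX.r3.3HG0230240 (chromosome 3H, 22713023 to 22715134), with 3.58, 4.10 and 3.42 TPM in *msnsd* and 6.44, 4.72 and 4.77 TPM in E934. Its libraries did not overlap (log2 difference -0.50, SE 0.18, limma adjusted p = 0.405).

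The smallest adjusted p of all members was that of HORVU.MOREX.r3.5HG0484630, described as a homeodomain-like and winged-helix DNA-binding family protein (chromosome 5H, 450000908 to 450001291). It had 20.20, 18.29 and 21.72 TPM in *msnsd* and 31.79, 40.16 and 37.29 TPM in E934. The highest *msnsd* library was about 10 TPM below the lowest E934 library. Its means were 20.1 ± 1.72 TPM in *msnsd* and 36.4 ± 4.25 TPM in E934 (SD, n = 3), and its log2 difference was -0.85 (SE 0.12, limma adjusted p = 0.0738). Over the alternatives the fold change stayed between -0.95 and -0.78 and the adjusted p between 0.0638 and 0.321. The model is 384 bp long, has no homeobox domain listed and belongs to the members that the word homeodomain in the description brought in.

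ZF-HD genes encode plant proteins in which a zinc finger stands beside the homeodomain and lets them pair. All 6 members with the ZF-HD domain were tested. At p under 0.05 before adjustment, 2 of them were lower in *msnsd* (all genes 5.09%) while 0 were higher (all genes 5.58%). Without E934 replicate 1, 2 were lower and 2 others higher, HORVU.MOREX.r3.5HG0484290 and HORVU.MOREX.r3.5HG0487750, and without E934 replicate 2 or 3 or *msnsd* replicate 1 or 3 there were 0 in either direction. HORVU.MOREX.r3.2HG0169150, described as zinc finger homeodomain 1 (chromosome 2H, 481768128 to 481769545), had 103.95, 126.71 and 106.79 TPM in *msnsd* and 126.77, 145.15 and 152.32 TPM in E934. Its highest *msnsd* library was just below its lowest E934 library, and the log2 difference was -0.33 (SE 0.11, limma adjusted p = 0.352). HORVU.MOREX.r3.1HG0091890, chosen after its values were seen, had 2.16, 1.91 and 2.17 TPM in *msnsd* and 2.35, 3.97 and 4.71 TPM in E934. E934 replicate 1 stood next to the *msnsd* libraries here, and the log2 difference was -0.74 (SE 0.28, limma adjusted p = 0.421). The low-confidence model HORVU.MOREX.r3.5HG0503040, also described as zinc finger homeodomain 1, had 0.42, 0.40 and 0.98 TPM in *msnsd* and 0.37, 0.18 and 0.00 TPM in E934, with a log2 difference of 1.47 (SE 0.68, limma adjusted p = 0.492), 0.43 at a pseudocount of 1 and 0.85 without E934 replicate 3. Its lowest *msnsd* library was just above its highest E934 library.

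None of the tested genes with a DDT, SAWADEE or PHD finger domain had an unadjusted p under 0.05 with all 6 libraries. In Arabidopsis, proteins with a homeobox and a DDT domain act with chromatin remodellers, and SAWADEE homeodomain proteins act in DNA methylation guided by small RNA. The 4 DDT genes had log2 differences between -0.19 and 0.11. Both SAWADEE genes overlapped between genotypes, and the more abundant, HORVU.MOREX.r3.5HG0474640, chosen after its values were seen, had 80.00, 90.61 and 86.16 TPM in *msnsd* and 84.99, 79.97 and 88.50 TPM in E934. The 3 tested genes with a PHD finger had log2 differences between -0.22 and -0.09, and in 1 of them, HORVU.MOREX.r3.1HG0077220, every *msnsd* library was below every E934 library. Without E934 replicate 1 this gene was lower and the SAWADEE gene HORVU.MOREX.r3.1HG0058850 higher at p under 0.05 before adjustment, and the first was also under it with median-of-ratios or quantile scaling. Of the 39 tested members with none of the listed domains, 0 were higher (all genes 5.58%) and 5 lower (all genes 5.09%) in *msnsd* at p under 0.05 before adjustment. Of the 5, 3 are low-confidence models, HORVU.MOREX.r3.7HG0699490 and, chosen after their values were seen, HORVU.MOREX.r3.5HG0483920 and HORVU.MOREX.r3.4HG0403840. Without E934 replicate 1, 4 of these members were higher and 2 lower.

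Within a genotype the members varied most between the E934 libraries. Over the 90 members with a mean of at least 1 TPM, the median coefficient of variation was 9.56% in *msnsd* and 12.7% in E934. E934 replicate 1 was the library farthest from its genotype median in 49 of the 90 members, against 20 for E934 replicate 2 and 21 for replicate 3, while the *msnsd* libraries had between 28 and 32 each. E934 replicate 1 lay more than 1.5-fold above both other E934 libraries in 6 members and below them in 7. Among these 90, the widest ranges within a genotype were those of HORVU.MOREX.r3.7HG0699490, described above, and HORVU.MOREX.r3.2HG0196050, a homeodomain-like gene with a Myb domain. The second had 4.76, 2.49 and 5.73 TPM in *msnsd* and 1.97, 8.94 and 8.80 TPM in E934, with a log2 difference of -0.39 that was -1.10 without E934 replicate 1. A further gene, HORVU.MOREX.r3.4HG0399240, chosen after its values were seen, had 26.88, 28.93 and 29.30 TPM in *msnsd* and 7.48, 29.81 and 27.97 TPM in E934.

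**Figure D5:**
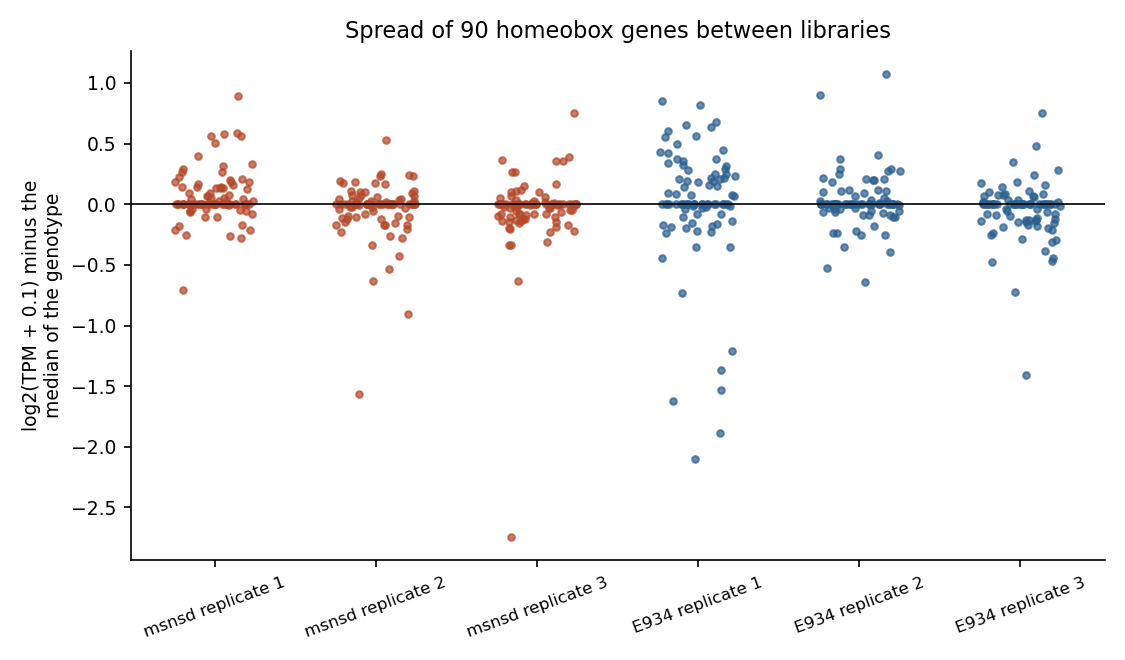
Difference of log2(TPM + 0.1) from the median of its own genotype (vertical axis) for the 90 homeobox genes with a mean of at least 1 TPM, in each library (horizontal axis, *msnsd* left of E934). Each point is 1 gene. E934 replicate 1 has the widest scatter and is the farthest from its genotype median in 49 of the 90 genes.

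Genes that act before or after homeobox proteins were looked up by description. The shares of all genes tested, to be set beside each list, are 5.58% higher and 5.09% lower at p under 0.05 before adjustment. Maize KNOTTED1 activates a gibberellin 2-oxidase, which inactivates gibberellin, and some KNOX proteins raise cytokinin synthesis in Arabidopsis and rice. Of 20 cytokinin synthesis genes tested, 2 were higher and 1 was lower in *msnsd* at p under 0.05 before adjustment, with a median log2 difference of -0.06. The smallest adjusted p of these lists was that of HORVU.MOREX.r3.4HG0335590, a cytokinin riboside 5'-monophosphate phosphoribohydrolase, an enzyme that frees active cytokinin. It had 64.37, 70.77 and 66.48 TPM in *msnsd* and 38.91, 36.46 and 42.39 TPM in E934, with a log2 difference of 0.78 (SE 0.08, limma adjusted p = 0.0518), and was chosen after its values were seen. Among 17 gibberellin oxidases tested, 3 were higher and 1 was lower, with a median of -0.01. Without E934 replicate 1, 1 was higher and 3 were lower. Besides 2-oxidases, the list holds gibberellin 20-oxidases and a 3-beta-dioxygenase. With all libraries, the genes of the list at p under 0.05 before adjustment are all described as 2-oxidases. Of 18 genes with a LOB domain or described as rough sheath 2, families that hold repressors of KNOX genes in Arabidopsis and maize, 3 were higher and 0 lower, with a median of 0.15, and without E934 replicate 1 there were 5 higher and 2 lower. None of the 16 tested genes of CLAVATA peptide signalling, which limits WUSCHEL in Arabidopsis, had p under 0.05 before adjustment, and without E934 replicate 1 there were 2 higher. The search for OVATE and for little zipper proteins matched 0 genes, and 0 genes of any list were called.

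Each library held values above 0 for 33227 to 35537 genes, and for 129 to 135 of the homeobox genes. Markers of the labelled tissue were present in all libraries. The 101 genes of floral and spike meristem (MADS-box, YABBY and squamosa promoter-binding) summed to 3056 to 3235 TPM in *msnsd* and 3200 to 3332 TPM in E934. The 110 green leaf genes summed to 1332 to 1730 TPM in *msnsd* and 1229 to 1613 TPM in E934, and the 8 pollen and anther genes to 60.1 to 69.9 TPM in *msnsd* and 64.1 to 78.5 TPM in E934. The 189 genes of the search for dividing cells (histone H4 and cyclin) summed to 32550 to 35820 TPM in *msnsd* and 32860 to 37320 TPM in E934. These ranges overlap between the genotypes, and their part in the homeobox values was not tested. For the homeobox models, RefSeq genes of the same assembly overlapped 103 of the 106 high-confidence and 10 of the 42 low-confidence models, and 0 pairs of members fell on 1 RefSeq gene.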

How the data were processed

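RNA-seq libraries of young panicles, 3 of *msnsd* and 3 of E934, were grouped by the genotype in the sample labels. Per the labels and the methods of the study, reads were cleaned with fastp and transcripts were quantified with Salmon 1.9.0 on the Morex V3 assembly. The authors deposited TPM per gene and library, to the second decimal. How transcripts were joined to genes is not given in the sources used here. The columns of the authors' own DESeq2 comparison (log2 fold changes, p-values, adjusted p-values, mean normalized counts) were not used, and 0 columns that hold single libraries were omitted. TPM keeps no depth, so the reads per library are unknown and no counting error is given. Sequencing libraries were not made with a kit stated to keep strand, so overlapping genes may share reads.

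The 32968 genes whose mean was 0.1 TPM or more entered a limma fit (version 3.58.1, R 4.3.3) of log2(TPM + 0.1) on genotype alone, with the trend option, and p-values were adjusted over all of them (Benjamini-Hochberg). Genes were called at the thresholds of the study, 1.5 for the fold change in either direction on the log2 scale and 0.05 for the adjusted p. The study's count model needs counts and was not run. For single genes an exact permutation test (two-sided) went through the 20 assignments of the libraries. Sums and descriptions used Python 3.11.15 with numpy 2.4.6, pandas 2.3.3 and matplotlib 3.10.9. The test was checked on simulated data.

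The members, groups and lists were chosen with earlier results of these data known. Named genes were every called member, the 3 most abundant of each group, the most positive and most negative fold change without overlap in each group, members with an unadjusted p under 0.05 and a fold change of 1 or more on the log2 scale in either direction, and the 2 with the widest range within a genotype among members with a mean of at least 1 TPM. Alternatives were pseudocounts of 1 and 0.01, no filter and one at a mean of 1 TPM, scaling by quantiles or by the median of ratios, no trend, a block for the replicate number, leaving out each library, high-confidence models only, and members chosen by the homeobox domain. The limma p-values set the difference between genotypes against the spread between libraries within a genotype, moderated over all genes tested. They rest on the 3 libraries of each genotype. Replicate numbers come from the labels, and no source says that same-numbered libraries belong together.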

Additional observations from a re-analysis of the deposited data

How the results depend on the processing

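Over all alternatives, 0 homeobox genes were called (limma, Benjamini-Hochberg). With the block and without any 1 library, 0 of all 32968 genes were called, so the 0 there says nothing about the members, and in the other fits 11 to 30 of all genes were called. Leaving out 1 library gave 7 to 19 members higher and 5 to 11 lower in *msnsd* at p under 0.05 before adjustment, 16 to 32 with every *msnsd* library above and 12 to 22 with every one below E934, which is easier to reach with 1 library fewer. The highest counts, 19 higher and 32 above, came without E934 replicate 1. There the count of all genes at p under 0.05 before adjustment was also the highest, 5159 of 32968 against 3517 with all libraries. With a filter at a mean of 1 TPM, 8 members had every *msnsd* library above E934, since fewer genes were tested. Choosing members by the homeobox domain left 2 lower at an unadjusted p under 0.05 and 3 with every *msnsd* library below, against 9 and 10 when chosen by description. That choice leaves out the 6 ZF-HD genes, 2 of which were lower. With the replicate number as a block, 8 members were higher and 7 lower, and 2 of the 9 KNOX-domain genes were higher, against 4 without it. Same-numbered libraries deviated with correlations of 0.02, -0.07 and 0.04 across genes, and the numbers were not taken as pairs. Without 1 library, fold changes close to 0 turned their sign. They ran from -0.0335 (without E934 replicate 3, and -0.0257 without replicate 2) to 0.191 in HORVU.MOREX.r3.1HG0010970, and from -0.0933 (without E934 replicate 2, with -0.0671 without E934 replicate 3 and -0.0335 without *msnsd* replicate 1) to 0.260 in HORVU.MOREX.r3.1HG0048720. The ranges were -0.241 to 0.00983 (without E934 replicate 1) in HORVU.MOREX.r3.2HG0166000, -0.0695 (without E934 replicate 3) to 0.542 in HORVU.MOREX.r3.5HG0467090 and -0.110 to 0.0266 (without *msnsd* replicate 2) in HORVU.MOREX.r3.6HG0597310. The cause was not tested. The scalings moved the median of all genes by less than 0.1 on the log2 scale. Fold changes of members near or under 1 TPM depend on the pseudocount, and the unknown depth allows no counting error.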
